A study of Mus musculus with 59 samples.

Results

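The Slc16 genes encode the monocarboxylate transporter family, membrane carriers that move lactate, pyruvate and related small acids. The family was examined here in mouse serous epithelial ovarian cancer (SEOC). Its members were 8 genes, Slc16a1, Slc16a3, Slc16a4, Slc16a6, Slc16a7, Slc16a9, Slc16a10 and Slc16a13, of the 18193 genes measured. They were chosen by name, and Slc16a4 was picked for its large and uniform rise in the tumors of these same arrays. Its difference from normal epithelium is therefore given as a description, with no test. All probe sets that carry the symbol of 1 member alone were taken, which gave 15 of the 34945 probe sets with 1 symbol. A probe set is the group of short array probes that reads 1 stretch of a transcript. None of the 932 probe sets with several symbols held a member.

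Proton-coupled lactate carriers let cells with a high rate of glycolysis release lactate together with protons, and let other cells take lactate up as fuel. Slc16a1 (MCT1), Slc16a7 (MCT2) and Slc16a3 (MCT4) are such carriers, and they need a chaperone, basigin or embigin, to reach the cell surface. Slc16a10 carries aromatic amino acids and thyroid hormone without protons. For the other members the substrates are carnitine (Slc16a9, known from human), ketone bodies (Slc16a6, known from zebrafish liver), lactate (Slc16a13, known from mouse liver) and, for Slc16a4, none that is settled.

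Transcript levels came from 59 Affymetrix arrays of FVB/NJ mice, 1 array a sample, as log2 values after robust multi-array averaging (RMA). The published set held 3 samples of wild type normal ovarian epithelium and 26 primary tumors. These tumors are all labelled K18 tg. Of them 14 were B1 fl/fl with p53 fl/fl (Brca1-deficient, p53 deleted), 3 were B1 fl/fl with p53 m/fl (Brca1-deficient, p53 missense), 5 were B2 fl/fl with p53 m/fl (Brca2-deficient, p53 missense), and 4 had p53 fl/fl alone (Brca wild type, p53 deleted). The new set held 30 tumors, 18 labelled B1 D/D with K18 tg (Brca1-deficient) and 12 labelled K18 D/D (Brca wild type). All 30 are labelled cp D/D, which was read as deleted p53 from the study's description of these lines. The new set had 5 primary tumors and 25 passaged tumors, which were grown from fragments set under the ovarian bursa of syngeneic FVB females. The passaged tumors were 4 Brca1-deficient and 4 wild type of passage 1, 4 and 5 of passage 2, and 4, 2 and 2 Brca1-deficient of passages 3, 4 and 5. All tumors carried the K18 transgene, which inactivates RB tumor suppression from the Krt18 (keratin 18) promoter, and adenoviral Cre injected into the bursa made the deletions, so a tumor also holds host cells without them. Normal samples exist in the published set alone. The labels give neither the animals' ages, nor the line of origin of each passaged tumor, nor whether separate mice gave the normal samples. Tests over passaged tumors may therefore give p-values that are too small, and the spread of the normal samples may be technical.

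Several arrays and samples stood apart. The arrays of tumors 65021 and 64644, both of passage 3, differed by an SD of 0.0722 over all probe sets, and those of 62803 (wild type) and 61362 (Brca1-deficient), both of passage 2, by 0.0803. The next closest pair differed by 0.209. Each pair was counted once in means, the second pair was left out of means by genotype, and every array entered the fits. With 1 array of the first pair and both arrays of the second left out, the number of members called was the same in the 5 comparisons concerned. The normal samples held other ovarian cells. The mean level of 13 oocyte markers was 8.94 to 9.98 in them and 5.46 to 6.36 in published tumors, and that of 10 granulosa, theca and luteal markers was 9.94 to 10.52 against 6.60 to 8.26. Of these markers 12 and 9 were lower in published tumors, where 26% of all genes were lower and 15% higher. All 8 markers of T and NK cells were lower (6.29 to 7.45 against 5.38 to 6.56), as were 5 of 9 fibroblast markers (10.75 to 10.95 against 7.50 to 11.15). Endothelial markers were lower for 2 of 8, striated muscle for 2 of 7 and erythroid for 1 of 4, shares near the 26% of all genes. Of 12 macrophage markers 2 were higher and 2 lower, of 12 epithelial and carcinoma markers 5 and 1, and no adipocyte or B and plasma cell marker passed (limma). Krt18, the keratin of simple epithelia, was 11.89 to 12.44 in normal samples and 13.34 to 13.78 in published tumors. Array medians lay between 7.20 and 7.51. In such bulk samples fewer cells of a type and less RNA per cell cannot be told apart. The part that other cell types have in the differences from normal epithelium was not tested.

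The promoters show how unlike the members are upstream of the transcript. Of the 8 members, 5 matched an entry of the RefSeq promoter table (build GRCm38.p6), which gives 250 bases before to 50 bases after the start of each gene. The 4 below are those of the genes the results turn on, Slc16a4 (chr3:107290980-107291279, plus strand), Slc16a3 (chr11:120948817-120949116, plus strand), Slc16a1 (chr3:104638414-104638713, plus strand) and Slc16a9 (chr10:70245026-70245325, plus strand). Capitals mark ACGTG on either strand, a core form of the hypoxia response element. The other core form, GCGTG, was not searched.
Slc16a4: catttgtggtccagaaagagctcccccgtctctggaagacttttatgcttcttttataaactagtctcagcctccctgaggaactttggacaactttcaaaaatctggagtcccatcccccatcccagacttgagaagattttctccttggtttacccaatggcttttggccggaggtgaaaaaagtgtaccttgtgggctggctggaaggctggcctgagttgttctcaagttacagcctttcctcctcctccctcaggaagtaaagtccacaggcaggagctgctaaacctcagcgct
Slc16a3: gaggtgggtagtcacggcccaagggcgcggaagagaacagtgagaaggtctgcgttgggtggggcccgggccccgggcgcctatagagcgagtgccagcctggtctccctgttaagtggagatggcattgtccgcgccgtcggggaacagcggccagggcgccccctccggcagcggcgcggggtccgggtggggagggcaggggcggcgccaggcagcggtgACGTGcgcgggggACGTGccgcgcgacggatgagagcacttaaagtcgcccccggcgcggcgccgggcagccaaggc
Slc16a1: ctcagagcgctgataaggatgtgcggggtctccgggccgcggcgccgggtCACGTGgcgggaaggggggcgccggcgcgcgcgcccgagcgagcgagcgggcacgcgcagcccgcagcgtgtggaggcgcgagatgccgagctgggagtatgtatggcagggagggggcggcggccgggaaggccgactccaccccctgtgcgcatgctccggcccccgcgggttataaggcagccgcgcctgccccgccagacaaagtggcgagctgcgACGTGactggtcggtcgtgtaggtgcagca
Slc16a9: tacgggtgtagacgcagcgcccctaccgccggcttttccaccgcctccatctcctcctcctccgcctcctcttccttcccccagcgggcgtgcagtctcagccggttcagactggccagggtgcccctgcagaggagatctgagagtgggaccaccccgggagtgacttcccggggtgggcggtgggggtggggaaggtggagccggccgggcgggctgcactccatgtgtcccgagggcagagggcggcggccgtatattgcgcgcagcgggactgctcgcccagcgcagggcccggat

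The letters ACGTG, searched on both strands, occurred 2 times for Slc16a3. They occurred 3 times for Slc16a1, where 2 matches lie on opposite strands of 1 CACGTG. The windows of Slc16a4, Slc16a9 and Slc16a10 held none, and 19.7% of 27025 promoters of 300 bases held at least 1. CACGTG itself was present in 7.24% of promoters. The Slc16a1 window held 42 CG dinucleotides, more than 97.1% of promoters, and that of Slc16a3 held 36, more than 94.0%. The windows of Slc16a9 and Slc16a10 (chr10:40142205-40142504, minus strand) held 26 each. That of Slc16a4 held 3, where the median promoter held 7, together with TATAAA (present in 14.2% of promoters), whose 2 matches overlap on opposite strands of 1 stretch, and 1 to CCAAT (37.9%). GGGCGG, the letters of a GC box, occurred 3 times each for Slc16a9 and Slc16a10, 1 time each for Slc16a1 and Slc16a3, and is in 35.9% of promoters. Neither TTTGGCGC nor TTTCGCGC, forms of the E2F motif found in 0.833% of promoters, was in any of the 5 windows. These are matches of letters, and no binding was measured.

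Slc16a4 was read by 2 probe sets that ran in opposite directions. On 1456914_at, the brighter one, the normal samples had log2 levels of 6.64, 7.40 and 7.80. The 26 published tumors ranged from 9.87 to 12.15 with a median of 11.55. All 26 lay above all normal samples. The mean was 11.40 ± 0.60 (SD, n = 26) against 7.28 ± 0.59 (n = 3), a difference of 4.12 (SE 0.35, 95% interval 3.40 to 4.85), rank 8 of 18193 genes from the top. On 1426082_a_at the normal samples had levels of 8.45, 9.54 and 9.68. Published tumors ranged from 7.45 to 8.73 with a mean of 8.13 ± 0.36, and 22 of the 26 lay below all normal samples. The difference there was -1.09 (SE 0.23). Over 59 arrays the Pearson correlation of both probe sets was -0.32, and over the 56 tumors, with each set centred on its mean, it was 0.03. Which transcripts of the gene each probe set reads was not analysed here. The plot of both probe sets by group shows the split.

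**Figure D1:**
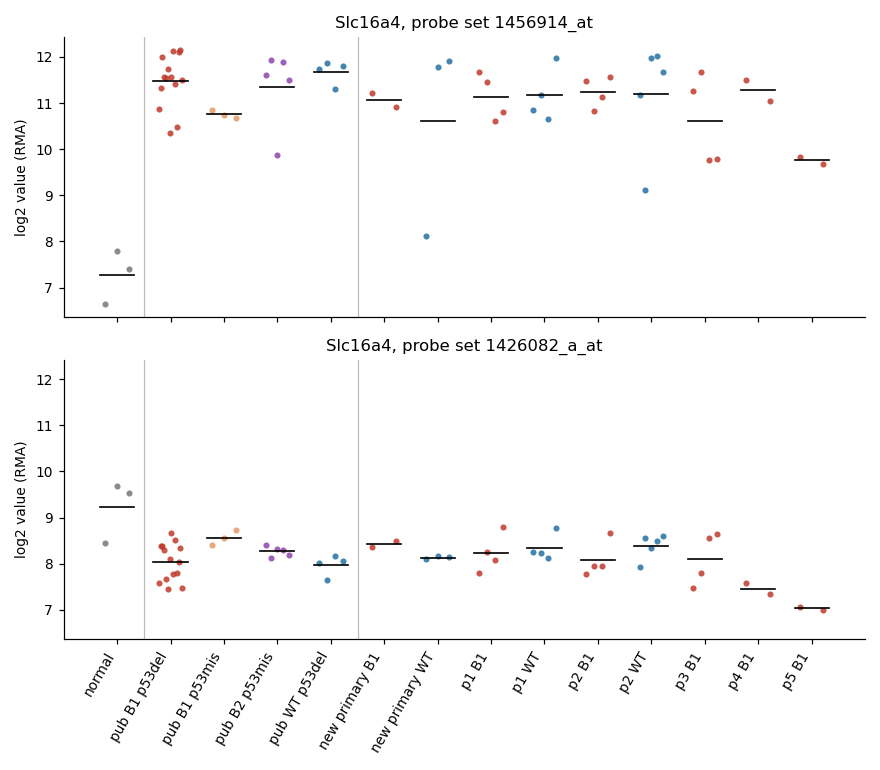
Log2 level (RMA) of the 2 Slc16a4 probe sets by group, with a point for each array and a black bar at the mean over all arrays of the group. Groups are normal epithelium, published (pub) tumors and new tumors by passage (p1 to p5), with B1 and B2 for Brca1- and Brca2-deficient and WT for Brca wild type. On 1456914_at every tumor lies above the normal samples, whose highest value is 7.80, and on 1426082_a_at no tumor lies above their highest value, 9.68.

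Levels on 1456914_at lay above the normal samples in each genotype. Brca1-deficient tumors with deleted p53 had a mean of 11.48 ± 0.57 (n = 14) and wild type tumors with deleted p53 one of 11.68 ± 0.26 (n = 4). Brca2-deficient tumors with missense p53 had 11.35 ± 0.85 (n = 5) and Brca1-deficient tumors with missense p53 10.75 ± 0.09 (n = 3). The new primary tumors 30200 and 39877 (Brca1-deficient) had levels of 11.21 and 10.92, and 34429 and 32233 (wild type) had 11.78 and 11.90. The remaining wild type tumor, 29255, had 8.12, the lowest of all tumors. Passaged tumors had a mean of 11.04 ± 0.80 (n = 23) and ranged from 9.11 (60514, passage 2, wild type) to 12.02. The passaged tumors differed from normal epithelium by 4.32 (SE 0.61) in the fit over all 59 arrays, which takes the difference between the sets from the primary tumors. Without tumor 29255 that difference was 3.66. All 30 tumors of the new set lay above the normal samples on this probe set, and no overlap of both sets with the normal samples was found for 8.07% of genes. In the merged mouse and human table, whose Slc16a4 row followed 1456914_at (r = 0.91) more closely than 1426082_a_at (r = 0.11), the differences were 1.88 for published and 1.90 for passaged tumors.

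Genes whose levels ran most like those of Slc16a4 on 1456914_at over 56 tumors were Ttc14 (r = 0.95), Trpc2 (0.94), Ccnl1 (0.93), D930016D06Rik (0.93) and Ftx (0.92). Ccnl1 encodes cyclin L1, which takes part in splicing, and Ftx is a long non-coding RNA of the X inactivation center. For Ttc14 r was 0.89 in the published and 0.98 in the new set. Of these genes 4 were higher in published tumors than in normal epithelium, beside 15% of all genes (limma). The differences were 1.25 for Ttc14 (adjusted p = 0.00232), 2.56 for Trpc2 (1.71e-05), 1.97 for Ccnl1 (2.72e-06) and 1.87 for Ftx (0.000385). D930016D06Rik differed by 0.65 (adjusted p = 0.114). In tumors 29255 and 60514, low for Slc16a4, Ccnl1 was 10.37 and 10.44, against a mean of 12.08 over the new set and a highest normal value of 10.38. The genes were chosen for r over these same tumors, so low values in the same tumors follow from the choice and are a description. Slc16a4 was itself chosen for its rise against normal epithelium, so the differences of these genes from normal epithelium are a description too.

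Among the other 7 members, 1 passed the test in published tumors against normal epithelium, where 40.9% of all genes did (limma, Benjamini-Hochberg adjusted p under 0.05). This was Slc16a3, the lactate exporter of glycolytic cells. Its normal samples had levels of 8.57, 8.93 and 9.29, and published tumors ranged from 9.12 to 11.41 with a median of 10.40. All but 1 of the 26, R5855 at 9.12, lay above all normal samples. The means were 10.38 ± 0.55 (n = 26) and 8.93 ± 0.36 (n = 3), a difference of 1.46 (SE 0.32, adjusted p = 0.000521). Passaged tumors had a mean of 10.95 ± 0.50 (n = 23), new primary tumors one of 10.78 ± 0.42 (n = 5), and all 30 arrays of the new set lay above the normal samples. Such a lack of overlap was found for 14.7% of genes. The passaged tumors were higher than normal epithelium by 1.65 (SE 0.40, adjusted p = 0.0011). In that comparison 2 of 7 members passed, beside 27.5% of all genes. Over the genotypes of the published set the mean of Slc16a3 went from 10.11 ± 0.42 in wild type tumors with deleted p53 (n = 4) to 10.77 ± 0.29 in Brca1-deficient tumors with missense p53 (n = 3), and the ranges overlapped. Over 56 tumors the genes most like Slc16a3 were Maea (r = 0.79), Ogfod2 (0.77), Bak1 (0.76), Tinagl1 (0.76) and Glmp (0.76), of which Maea was lower in published tumors by 0.48 (adjusted p = 0.000349).

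**Figure D2:**
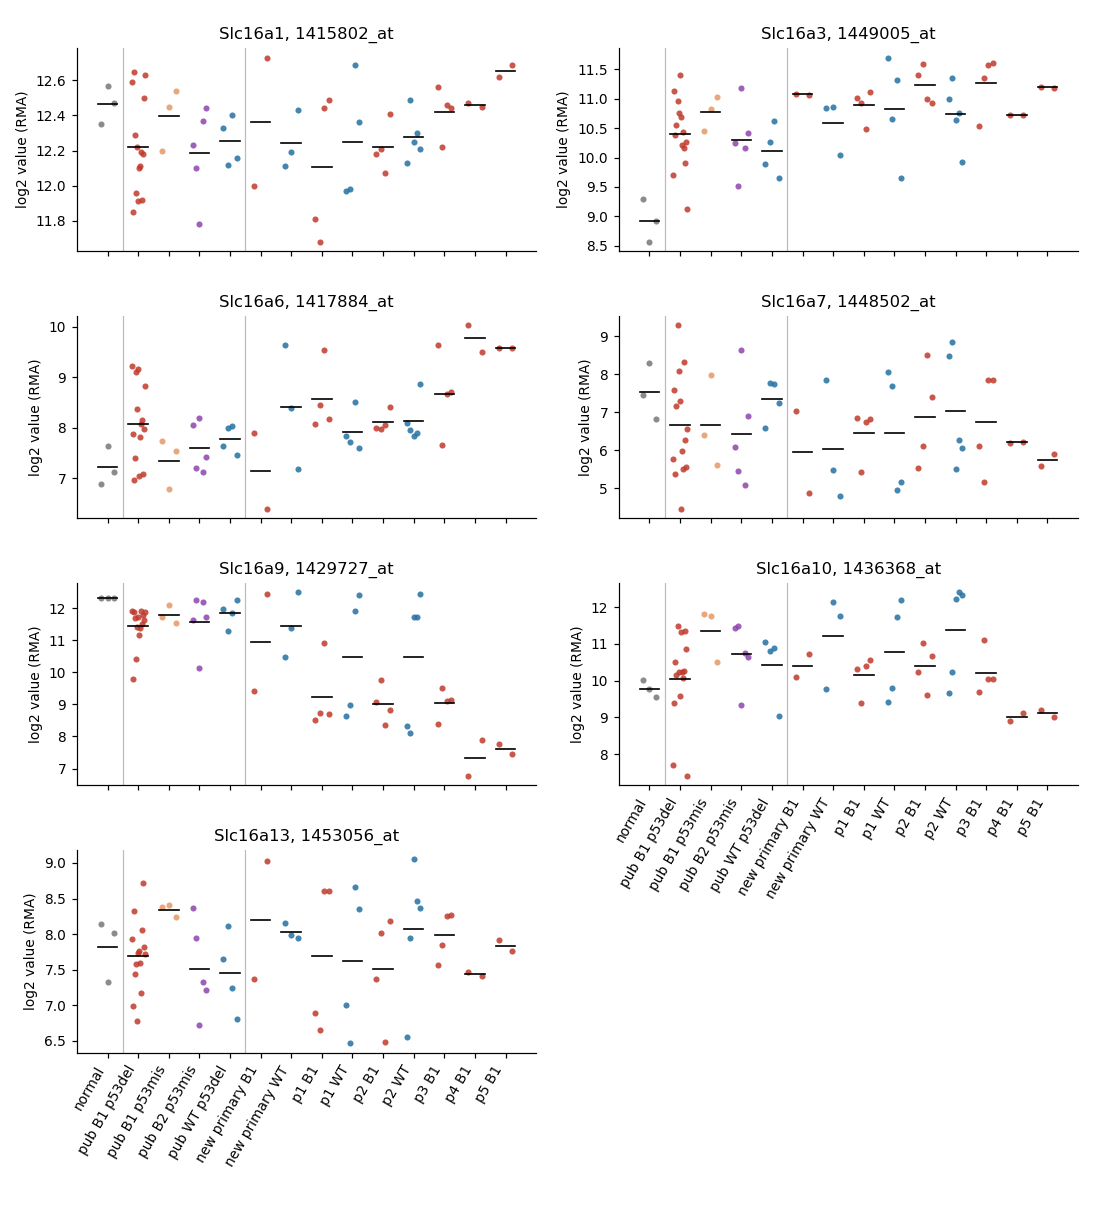
Log2 level (RMA) of the other 7 members, each on its probe set with the highest mean, by group. Points are arrays, black bars the mean over all arrays of a group, and group names are as normal, published (pub) and new tumors by passage (p1 to p5), B1, B2 and WT for the Brca genotype. Slc16a3 lies above the normal samples (8.57 to 9.29) in all tumors except R5855, and Slc16a9 spreads from 12.50 down to 6.76 in the new set.

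Slc16a1, the widely expressed lactate carrier, did not pass. Its normal samples had levels of 12.35, 12.47 and 12.57 on 1415802_at. Published tumors ranged from 11.78 to 12.65 with a mean of 12.24 ± 0.24 (n = 26), and 17 of them lay below all normal samples. The difference was -0.23 (SE 0.14, adjusted p = 0.216) in published and -0.22 (SE 0.20, adjusted p = 0.432) in passaged tumors. The dimmer probe set 1446274_at had 7.75, 7.81 and 8.06 in normal samples and 7.03 ± 0.60 in published tumors, 24 of which lay below. It was lower (-0.85, SE 0.34, adjusted p = 0.0468 over all probe sets), one of 4 of the 13 tested member probe sets called in this comparison, where 41.4% of all probe sets were. Both probe sets moved together across tumors (r = 0.67). Genes most like Slc16a1 over 56 tumors were Gpc3 (r = 0.71), Riox1 (0.70), the ribosomal gene Rps3a1 (0.70), Zcchc3 (0.70) and the ribosomal gene Rpl37a (0.69).

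Slc16a7, the high-affinity carrier, varied more between tumors than the other lactate carriers. The normal samples had levels of 6.83, 7.46 and 8.30, and published tumors ranged from 4.45 to 9.30 with a mean of 6.72 ± 1.23 (n = 26). The difference was -0.82 (SE 0.70, adjusted p = 0.371) in published and -0.21 (SE 0.92, adjusted p = 0.893) in passaged tumors, whose mean was 6.47 ± 1.11 (n = 23). Tumors lay on both sides of the normal samples. For Slc16a13 the normal levels were 7.32, 8.01 and 8.14, and published tumors ranged from 6.72 to 8.72 with a mean of 7.69 ± 0.55. The difference was -0.13 (SE 0.32, adjusted p = 0.78) in published and -0.46 (SE 0.50, adjusted p = 0.518) in passaged tumors.

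Of the proteins that bring lactate carriers to the surface, basigin (Bsg) had a mean of 11.95 ± 0.27 in normal samples and 12.20 ± 0.23 in published tumors, a difference of 0.26 (adjusted p = 0.158). Embigin (Emb) had 10.93 ± 0.56 and 10.11 ± 0.62, a difference of -0.82 (adjusted p = 0.0697). Of the 6 partner proteins and other monocarboxylate carriers measured, 1 was lower in published tumors, the lactate receptor gene Hcar1 (-0.95, adjusted p = 0.0416), and the median was -0.20 beside -0.11 over all genes. None of 5 other Slc16 genes measured passed in published or in passaged tumors (limma), and their medians were -0.01 and -0.09. Ldha, the lactate dehydrogenase subunit that favors lactate, had 11.93 ± 0.22 in normal samples, 12.62 ± 0.23 in published and 12.84 ± 0.24 in passaged tumors. Its difference was 0.70 (adjusted p = 0.000203) in published and 0.90 (0.000132) in passaged tumors. Ldhb differed by 0.36 (adjusted p = 0.062) in published tumors and was higher by 0.81 (0.00108) in passaged tumors.

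Of 12 genes of glucose uptake and glycolysis measured, 8 rose and none fell in published tumors, where 15% of all genes rose and 26% fell. Their median was 0.71 beside -0.11 over all genes. Hk2, hexokinase 2, was higher by 1.55, Pfkp by 1.20, the glucose transporter gene Slc2a1 by 1.18 and Tpi1 by 1.17, with adjusted p up to 0.00144. In passaged tumors 6 of 12 rose and none fell, beside 10.2% and 17.3% of all genes, among them Hk2 (1.94), Tpi1 (1.35), Slc2a1 (1.18) and Pkm (1.08). Of 12 lactate and pyruvate enzymes, 2 rose and 4 fell in published tumors, a share near the 40.9% of all genes called. Pdk1, a kinase that inhibits pyruvate dehydrogenase, rose by 1.62, while Pdp1, the opposing phosphatase, fell by 1.45, Me1 by 1.03 and Ldhd by 0.84. In passaged tumors 3 rose and 2 fell, where 27.5% of all genes were called, and Pdk1 rose by 2.04 while Pdp1 fell by 1.14. Of 8 genes of proton and bicarbonate handling 3 rose in published tumors, near the 40.9% of all genes called, with Car2 (carbonic anhydrase 2) by 1.77, Slc4a4 by 1.11 and Atp6v0a1 by 0.66, and none passed in passaged tumors (limma). These lists were drawn up with earlier results of these arrays known.

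**Figure D3:**
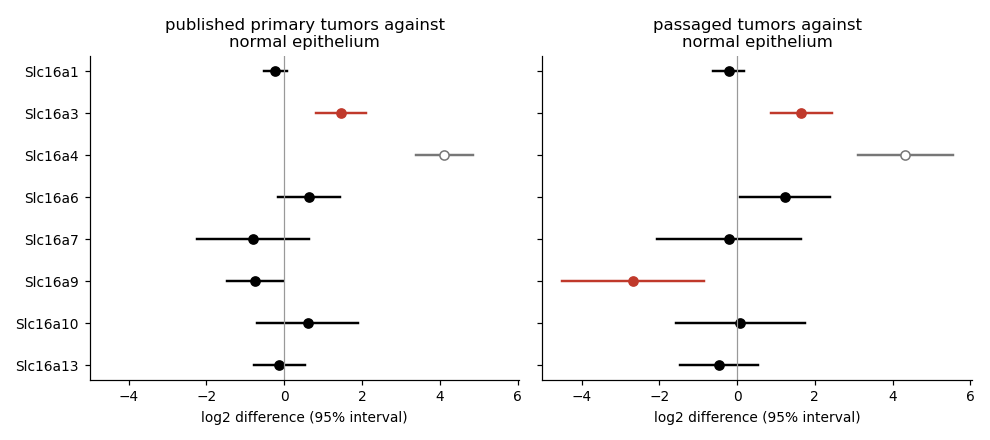
Log2 difference of each member from normal epithelium with its 95% interval, in published primary tumors and in passaged tumors. Red points passed the test (adjusted p under 0.05), and grey open points are Slc16a4, which was not tested. Slc16a3 passed in both comparisons (1.46 and 1.65) and Slc16a9 in passaged tumors (-2.67).

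Slc16a9, the carnitine carrier, was nearly level in the normal samples, at 12.31, 12.33 and 12.33 on 1429727_at. The 26 published tumors ranged from 9.79 to 12.26 with a median of 11.73. All of them lay below all normal samples, a lack of overlap found for 13.1% of genes. Their mean was 11.57 ± 0.61 and the difference -0.75 (SE 0.35, adjusted p = 0.0822), so the model over all genes did not call it. In passaged tumors the mean was 9.38 ± 1.66 (n = 23), and 21 lay below all normal samples. They were lower than normal epithelium (-2.67, SE 0.91, adjusted p = 0.0232). The second probe set, 1429726_at, gave -2.80 (SE 0.96, adjusted p = 0.0238), and the dim 1454104_a_at gave -1.58 (SE 0.84, adjusted p = 0.153). Leaving out any of 5 arrays, the 3 normal samples, 39877 or 32233, ended the call (adjusted p 0.0557 to 0.0574). The 3 probe sets ran together over tumors (r from 0.89 to 0.98).

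Of 6 genes of carnitine handling measured, none rose and 4 fell in published tumors, where 26% of all genes fell. Their median was -0.46 beside -0.11 over all genes. Slc22a5, the plasma membrane carnitine transporter, fell by 1.45, Cpt2 by 0.67, Slc25a20 by 0.48 and Cpt1a by 0.45. In passaged tumors 3 of 6 fell, beside 17.3% of all genes, Slc22a5 by 1.78, Cpt2 by 0.98 and Slc25a20 by 0.57.

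Slc16a10 was read by 4 probe sets that differed in their call. The brightest, 1436368_at, had levels of 9.55, 9.77 and 10.01 in normal samples. Published tumors ranged from 7.40 to 11.81 with a mean of 10.39 ± 1.12, and 20 lay above and 5 below all normal samples. The difference was 0.61 (SE 0.64, adjusted p = 0.468). On 1434592_at the mean went from 8.04 ± 0.44 to 9.56 ± 0.98, higher by 1.53 (SE 0.56, adjusted p = 0.0292), and 20 of 26 tumors lay above the normal samples. On 1453675_at it went from 6.07 ± 0.44 to 7.08 ± 0.65, higher by 1.01 (SE 0.38, adjusted p = 0.0325). In passaged tumors the brightest probe set differed by 0.08 (SE 0.83, adjusted p = 0.952) and no Slc16a10 probe set was called. Of 7 other genes of thyroid hormone and aromatic amino acid handling measured, none rose and 4 fell in published tumors, where 26% of all genes fell. The deiodinase gene Dio2 fell by 3.45, the amino acid transporter genes Slc7a8 by 1.59 and Slc7a5 by 1.03, and the thyroid hormone receptor gene Thrb by 0.30. In passaged tumors Dio2 fell by 3.65, Slc7a8 by 1.87, Slc7a5 by 1.06 and Thrb by 0.45.

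Slc16a6, a ketone body carrier, had levels of 6.89, 7.13 and 7.64 in normal samples. Published tumors ranged from 6.78 to 9.22 with a mean of 7.86 ± 0.68, and 15 of 26 lay above all normal samples. The difference was 0.64 (SE 0.39, adjusted p = 0.20). In passaged tumors the mean was 8.51 ± 0.77 (n = 23), and 22 lay above all normal samples. The difference was 1.23 (SE 0.58, adjusted p = 0.107), and without tumor 29255 it was 1.66 (adjusted p = 0.0268). It passed under 3 alternative settings in all, that one among them. Of 3 ketone body enzymes measured, Acat1 rose in published tumors by 0.37 (adjusted p = 0.0481).

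The new set allowed primary and passaged tumors to be compared, with Brca1 genotype as a covariate. No member passed (limma), 1 of 8 had an unadjusted p under 0.05, and of all genes 0% passed, with 1179 at an unadjusted p under 0.05. The member nearest to a call was Slc16a9, at -1.54 (SE 0.66, unadjusted p = 0.0272, adjusted p = 0.707). Slc16a3 differed by 0.11 (SE 0.23) and Slc16a4 by 0.24 (SE 0.46). These values rested on single primary tumors. Slc16a4 was at -0.41 without 29255 and 0.49 without 32233, Slc16a9 at -1.88 without 29255 and -0.91 without 39877, and Slc16a3 at -0.03 without 32233.

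Passage number was fitted over the new set's 18 Brca1-deficient arrays with primary tumors as passage 0. The labels give no line of origin, so the fit had no term for line. The part that lines have in the slopes was not tested. In this fit 3 of 8 members passed, beside 15.2% of all genes. Slc16a9 fell by 0.58 per passage (-0.58, SE 0.14, adjusted p = 0.0114). Without the primary tumor 39877 its slope was -0.42 and still passed. The primary tumors 30200 and 39877 had levels of 9.42 and 12.44. Passages 1, 2 and 3 had means of 9.22 ± 1.14 (n = 4), 9.22 ± 0.48 (n = 3) and 9.01 ± 0.57 (n = 3). Passage 4 had 6.76 and 7.88 and passage 5 had 7.45 and 7.75. All 4 tumors of the last 2 passages lay below all earlier Brca1-deficient tumors, a split not counted over all genes. Slc16a6 rose by 0.42 per passage (SE 0.10, adjusted p = 0.00997). It had 6.39 and 7.90 in the primary tumors, means of 8.56 ± 0.67, 8.13 ± 0.24 and 8.66 ± 0.99 in passages 1 to 3, 9.50 and 10.04 in passage 4 and 9.58 and 9.59 in passage 5. Tumors of passages 1 and 3, with highest values of 9.54 and 9.64, overlapped those of passages 4 and 5.

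Slc16a10 fell by 0.27 per passage (-0.27, SE 0.09, adjusted p = 0.0433). It had 10.09 and 10.72 in the primary tumors, means of 10.16 ± 0.53, 10.64 ± 0.40 and 10.28 ± 0.73 in passages 1 to 3, 8.90 and 9.13 in passage 4 and 9.02 and 9.21 in passage 5. All tumors of passages 4 and 5 lay below the normal samples, a split also not counted over all genes. The call ended when any of 9 of the 18 arrays was left out. Slc16a1 had a slope of 0.09 (SE 0.04, adjusted p = 0.159), and its passage 5 tumors had 12.62 and 12.69. Slc16a4 had one of -0.20 (SE 0.10, adjusted p = 0.171) on 1456914_at, where passage 5 had 9.68 and 9.84 and passage 4 had 11.05 and 11.50. On 1426082_a_at the slope was -0.25 (SE 0.06, adjusted p = 0.012), with means falling from 8.44 ± 0.09 (n = 2) in primary tumors to 7.03 ± 0.03 (n = 2) in passage 5. In all, 1 member probe set rose and 5 fell of 15 tested, beside 13.6% of all probe sets called. These were 2 of Slc16a9, 2 of Slc16a10 and 1 of Slc16a4, and that of Slc16a6.

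**Figure D4:**
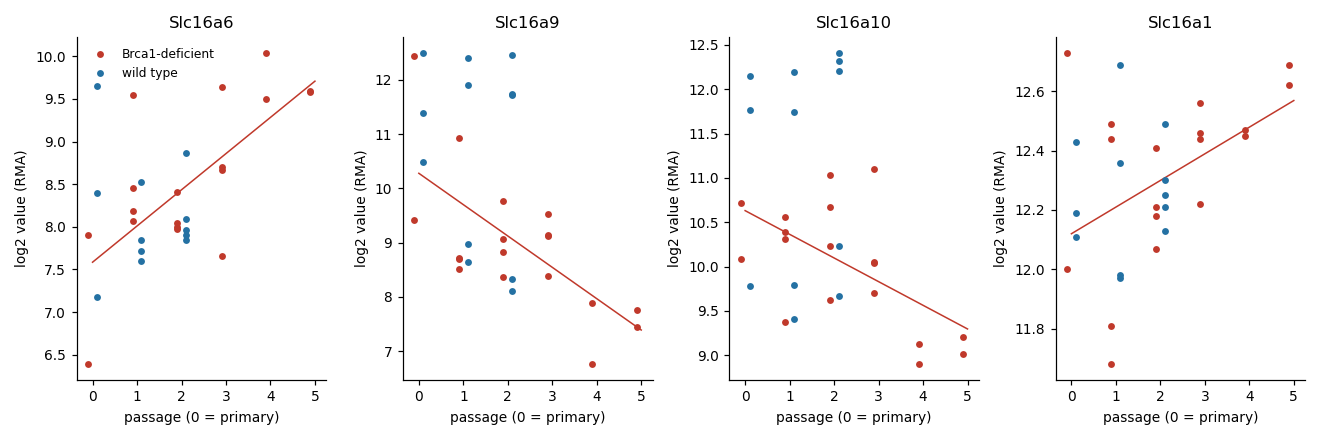
Log2 level (RMA) of Slc16a6, Slc16a9, Slc16a10 and Slc16a1 against passage number in the new set, with primary tumors at 0. Red points are Brca1-deficient and blue points wild type arrays, and the line is the least-squares slope over the 18 Brca1-deficient arrays. The Slc16a9 points of passages 4 and 5 lie between 6.76 and 7.88, below the other red points.

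Other cell types moved with passage. The mean level of 7 striated muscle markers was 9.07 to 9.19 in both passage 5 tumors and 5.86 to 6.19 in the Brca1-deficient tumors of passages 1 to 4. Of the marker lists, 5 of 12 macrophage, 5 of 8 T and NK cell, 4 of 7 striated muscle, 3 of 8 endothelial, 3 of 5 B and plasma cell, 2 of 9 fibroblast, 2 of 13 oocyte and 1 of 5 adipocyte genes rose with passage, where 8.7% of all genes rose and 6.46% fell. Of 12 epithelial and carcinoma genes 3 rose and 2 fell, and no granulosa, theca and luteal or erythroid gene passed (limma). Their part in the slopes was not tested. Of the pathway genes in the fit over all 18 arrays, Slc22a5 fell by 0.31 per passage, Car2 by 1.04 and Pdk4 by 0.27. Car4 rose by 1.48, Slc2a3 by 0.40, Acat1 by 0.13, Pdha1 by 0.11 and the mitochondrial pyruvate carrier gene Mpc1 by 0.08. Ldha had a slope of 0.02 (adjusted p = 0.684) and Bsg one of -0.10 (0.0743). Without the passage 5 tumors, a setting added after the data were seen, no member passed, and 2.96% of all genes did. The slopes were then -0.63 for Slc16a9 (adjusted p = 0.0921), 0.45 for Slc16a6 (0.0907) and -0.22 for Slc16a10 (0.347).

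For the loss of Brca1 in the new set, 2 of 8 members passed, beside 11.1% of all genes. Slc16a9 was lower in Brca1-deficient tumors by 1.58 on the log2 scale (-1.58, SE 0.50, adjusted p = 0.0413). The mean was 8.96 ± 1.36 (n = 16) in Brca1-deficient and 10.94 ± 1.63 (n = 11) in wild type tumors, and the ranges, 6.76 to 12.44 and 8.11 to 12.50, overlapped. Slc16a10 was lower by 1.09 (-1.09, SE 0.35, adjusted p = 0.0406), with means of 10.03 ± 0.72 and 11.27 ± 1.20. At the level of probe sets 6 of 15 passed, all lower, beside 10.3% of all probe sets. They were all 3 of Slc16a9 and 3 of the 4 of Slc16a10, with 1434592_at at -1.52 (SE 0.34, adjusted p = 0.0054). Of the cell type markers, 2 of 8 endothelial, 2 of 5 B and plasma cell, 2 of 12 epithelial and carcinoma and 1 of 7 striated muscle genes were lower and 1 of 10 granulosa, theca and luteal genes was higher, beside 4.6% and 6.49% of all genes. The endothelial markers had mean levels of 7.88 to 8.63 in Brca1-deficient and 8.02 to 9.15 in wild type tumors, and the 12 macrophage markers, none of them called, a median difference of 0.45. Their part in the genotype difference was not tested.

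Wild type passaged tumors differed widely among themselves for both genes. At passage 1 Slc16a9 had 8.65 (56234), 8.97 (56230), 11.91 (59232) and 12.41 (57093). At passage 2 it had 8.11 (60514), 8.33 (62803), 11.72 (63846), 11.74 (63935) and 12.45 (61333). In the same order of tumors, Slc16a10 had 9.41, 9.79, 11.74 and 12.19 at passage 1 and 10.23, 9.67, 12.21, 12.41 and 12.32 at passage 2. Slc16a7 had 8.06, 7.69, 4.94 and 5.15 at passage 1 and 8.84, 8.48, 5.49, 6.26 and 6.06 at passage 2. Tumors with little Slc16a9 thus also had little Slc16a10 and more Slc16a7. Tumor 62803 is one of the near-identical arrays with different genotype labels.

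The genotype of 2 wild type primary tumors is given in 2 ways. The labels and the study's table of lines give 29255 and 34429 as wild type for Brca1, while a picture heading of the study gives both lines as Brca1-deleted. The study's treatment experiments also used line 29255 as their Brca1 wild type model. Without both tumors, a setting added after the data were seen, 2 members and 13.2% of all genes passed, with -1.77 for Slc16a9 (adjusted p = 0.0255) and -1.17 for Slc16a10 (0.0268). Without 34429 alone Slc16a10 did not pass (-1.03, adjusted p = 0.0589). Any passaged tumors grown from these lines stayed in both fits as wild type, since the labels give no line of origin. Neither setting can therefore show which description is right.

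The genotype calls rested on few arrays. With primary tumors and passages 1 and 2 alone, where both genotypes are present, neither gene passed. The differences were then -1.18 for Slc16a9 (adjusted p = 0.336) and -0.83 for Slc16a10 (0.315), and 1.62% of all genes passed. Leaving out 1 array at a time gave 0 to 2 members. Basigin was lower in Brca1-deficient tumors by 0.43 (adjusted p = 0.016), and Slc5a8, a sodium-coupled monocarboxylate carrier, by 0.45 (0.032). Slc5a8 levels were low, from 3.95 to 5.92 with a mean of 4.31 in passaged tumors. The lowest value on any array was 3.25. Bdh1, a ketone body enzyme, was higher by 1.86 (adjusted p = 0.00018), Dio2 by 0.80, Pdhb by 0.67, Pfkm by 0.33 and Mpc1 by 0.24. Ldhc was lower by 1.25, Car9 by 1.09 and Atp6v0a1 by 0.43.

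In the published set no member passed for the loss of Brca1 among the 18 tumors with deleted p53 (limma), none had an unadjusted p under 0.05, and 0.0055% of all genes passed, with 706 at an unadjusted p under 0.05. Slc16a9 differed by -0.40 (SE 0.32) and Slc16a10 by -0.40 (SE 0.63). The difference of the Brca1 effect between the sets was -1.17 for Slc16a9 (SE 0.77, adjusted p = 0.587) and -0.69 for Slc16a10 (SE 0.70, adjusted p = 0.731). No member passed that test (limma), none had an unadjusted p under 0.05, and 0.143% of all genes passed.

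No member passed between p53 missense and p53 deleted tumors among 17 Brca1-deficient published tumors (limma), where 0.0715% of all genes did. Of the members 2 had an unadjusted p under 0.05, Slc16a4 at -0.73 (SE 0.32, adjusted p = 0.427) and Slc16a13 at 0.66 (SE 0.29, adjusted p = 0.422). The 3 missense tumors all lay above the normal samples for Slc16a13, a split not counted over all genes. Slc16a13 was 8.34 ± 0.09 in them and 7.69 ± 0.51 in the 14 with deleted p53. None passed between Brca2- and Brca1-deficient tumors with missense p53 (8 tumors, limma), 1 had an unadjusted p under 0.05, and 0% of all genes passed, with 1687 at an unadjusted p under 0.05. Slc16a13 differed there by -0.84 (SE 0.34, adjusted p = 0.513) and Slc16a4 by 0.60 (SE 0.45, adjusted p = 0.741). Without the Brca2-deficient tumor 23172, whose Slc16a4 level was 9.87, the Slc16a4 difference was 0.97 (adjusted p = 0.0493).

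Between new and published primary tumors with deleted p53, no member passed (limma) and 0.357% of all genes did. The member with an unadjusted p under 0.05 was Slc16a3, at 0.57 (SE 0.27, adjusted p = 0.369), and Slc16a4 differed by -0.74 (SE 0.43, adjusted p = 0.467). The Slc16a4 value rested on tumor 29255, without which it was -0.16. Tumor 30200 was measured in both sets, and without both its arrays Slc16a3 differed by 0.56 and Slc16a4 by -0.90. Between published tumors of stage III-IV and stage I-II (20 tumors, with genotype as a covariate), no member passed (limma) and 0% of all genes did, with 1198 at an unadjusted p under 0.05. Of the members 2 had an unadjusted p under 0.05, Slc16a7 at -1.50 (SE 0.56, adjusted p = 0.705) and Slc16a4 at 0.77 (SE 0.34, adjusted p = 0.735).

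Within the family, levels were correlated over 56 tumors after each set was centred on its own mean. Of 28 pairs, 4 had r over 0.5 and none had r under -0.5. The highest was Slc16a9 with Slc16a10 (r = 0.61), which was 0.87 in the new set and 0.07 in the published set. Slc16a13 ran with Slc16a9 (0.53), Slc16a1 (0.51) and Slc16a10 (0.51). The lowest values were Slc16a6 with Slc16a10 (-0.50), Slc16a3 with Slc16a4 (-0.45) and Slc16a3 with Slc16a9 (-0.45). These points share arrays, and some tumors may share a line, so the values are a description.

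**Figure D5:**
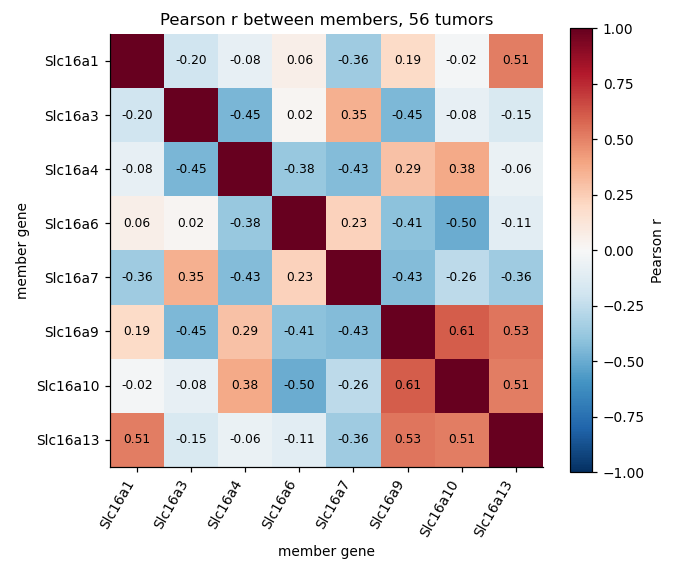
Pearson correlation of log2 levels between the 8 members over 56 tumors, with each set centred on its own mean. Each cell is 1 pair. The highest value is that of Slc16a9 with Slc16a10 (0.61) and the lowest that of Slc16a6 with Slc16a10 (-0.50).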

How the data were processed

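Transcript levels of 59 samples were measured on Affymetrix arrays, 1 a sample, from RNA of flash-frozen tissue amplified before labelling. The authors deposited log2 values made with RMA (version not given), and amplification and RMA can both change low levels. A second deposited matrix, also log2, merged the mouse samples with human ones. Its 59 mouse columns served as an alternative, and 278 others that hold values of single samples were left out.

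Of 45037 probe sets, 34945 had 1 gene symbol, 932 several and 9160 none. For each of 18193 genes the probe set brightest on average was used, and 9010 genes had more than 1. Groups, from the labels, were compared with limma 3.58.1 (lmFit, eBayes; R 4.3.3, data.table version 1.17.8), two-sided, with Benjamini-Hochberg adjustment over all genes tested and a threshold of 0.05. A second fit over all 34945 probe sets gave the values of single probe sets. The script was tested on simulated data. Python 3.11.15 with pandas 2.3.3, numpy 2.4.6 and matplotlib 3.10.9 served for description and plots.

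The genes named are all 8 members, the 4 list genes with the largest difference among those called together with Bsg, Emb, Ldha and Ldhb, and the 5 genes most like Slc16a4, Slc16a1 and Slc16a3. Members and lists were chosen with earlier results of these data known. Promoters came from RefSeq. Levels are compared within a probe set, never between probe sets. Arrays give no count of molecules, so their number limits the precision.

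Alternatives were the mean of a gene's probe sets, genes at or above the median level, weighted arrays, and eBayes with a trend and robust settings. Others were arrays centred on their median, the merged table, near-identical arrays counted once or left out, other covariates, single genotypes and fewer passages. The last were the primary tumors 29255 and 34429 left out, the other Slc16a4 probe set, and leaving out arrays in turn.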

Additional observations from a re-analysis of the deposited data

Results flagged for a closer look

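In 75 groups of 4 to 10 arrays, each for 1 member probe set, 11 arrays stood far from the others of their group by Dixon's test. Chance flags about 1 in 20 groups. The groups share arrays and some probe sets share a gene, so the 11 are not independent.

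Tumor 60514 (passage 2, wild type) stood apart 4 times, always low. It had 9.11 for Slc16a4 on 1456914_at (next 11.68), 8.11 for Slc16a9 on 1429727_at (next 11.72), and 10.23 (next 12.21) and 9.17 (next 11.38) for Slc16a10 on 1436368_at and 1434592_at. Tumor 62803, of the same group, is near-identical to an array of the other genotype and was left out of this count. Its Slc16a9 level was 8.33, and its Slc16a10 level on 1436368_at was below that of 60514. On 1429727_at and 1436368_at, 60514 thus stood apart only because 62803 was left out.

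Among published tumors, 23172 (Brca2-deficient) had 9.87 for Slc16a4 on 1456914_at, where the next had 11.49, and R5838 (wild type) had 9.03 for Slc16a10 on 1436368_at, where the next had 10.80. At passage 1, 57452 (Brca1-deficient) was high for Slc16a9 at 10.92 (next 8.72), 47343 (Brca1-deficient) low for Slc16a7 at 5.43 (next 6.74), and 59232 (wild type) high for Slc16a1 on 1446274_at at 7.39 (next 6.62). At passage 2, the wild type tumors 61333 and 63846 were high, 61333 for Slc16a6 at 8.86 (next 7.96) and 63846 for Slc16a10 on 1440569_at at 8.04 (next 6.64).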

How the results depend on the processing

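Of 88 pairs of a member and a comparison, 71 gave no call under any setting. Slc16a3 stayed higher and past the threshold under all its alternatives, from 1.01 to 1.85 in published and from 1.20 to 2.05 in passaged tumors. For Slc16a4 the main differences, 4.12 in published and 4.32 in passaged tumors, moved to 1.52 and 1.53 with the mean of both probe sets, 1.88 and 1.90 in the merged table, and -1.09 and -1.27 on the other probe set, a setting added after the data were seen. They were 3.47 for Brca1-deficient p53 missense tumors alone and 3.71 for passaged tumors with no set term. Leaving out 1 array gave 3.80 to 4.38 for published and 3.66 to 4.60 for passaged tumors.

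The number of members called in published tumors against normal epithelium, 1, was 3 with array weights, 3 with arrays centred on their median, 2 in the merged table and 2 for Brca1-deficient p53 missense tumors alone. Those added were Slc16a9 and Slc16a10 with weights, Slc16a1 and Slc16a9 with centring, Slc16a1 in the merged table (-0.97) and Slc16a10 in the missense tumors (1.58). Centring moved the median of all genes from -0.11 to -0.28. In passaged tumors the number, 2, was 1 in the merged table, which does not hold Slc16a9, and 1 to 3 with 1 array left out. It was 1 without any normal sample, 39877 or 32233, and 3 without 29255. Slc16a6 passed under 3 alternatives in all (limma, adjusted p down to 0.00822), of which leaving out 29255 was 1. For the slope per passage, 3, it was 5 with array weights (Slc16a1 and Slc16a4 added), where 38.9% of all genes passed, 0 without passage 5, and 2 to 3 with 1 array left out. Array weights were not the only setting that added these genes. The Slc16a4 slope passed as lower under 4 alternatives (limma, adjusted p down to 0.00333), the other probe set among them. The Slc16a1 slope passed as higher under 3 (adjusted p down to 0.00149). The Slc16a6 and Slc16a10 slopes missed the threshold with passages 1 to 5 alone (adjusted p 0.0518 and 0.0568), and that of Slc16a10 when its 4 probe sets were averaged (-0.11, adjusted p = 0.117). For Brca1 in the new set, 2, it was 0 in the merged table. That table holds neither Slc16a9 nor Slc16a10, so it cannot show whether their calls last. The number was 0 with primary tumors and passages 1 and 2 alone, and 0 to 2 with 1 array left out. It was 0 without any of 59232, 57093, 63846, 63935, 61333, 61742, 62337, 62338, 65026, 65076, 30200 and 32233 and 1 without any of 47362, 47343 and 34429. For Brca2- against Brca1-deficient tumors it was 0 to 1, with 1 (Slc16a4) without tumor 23172. The causes of these changes were not tested. For the other 6 comparisons the number was 0 under every setting run. No paired analysis was possible because the replicate numbers were given in accession order and pair nothing. Tumor 30200 alone was measured in both sets, and without both its arrays no member passed between new and published primary tumors (limma). Without the primary tumors 29255 and 34429 the number of members called was the same in the 4 comparisons concerned.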
